A study of Bactrocera dorsalis with 3 samples.

Results

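The mitochondrial ND genes encode the 7 subunits of NADH dehydrogenase, complex I of the respiratory chain, that are made inside the mitochondrion: ND1, ND2, ND3, ND4, ND4L, ND5 and ND6. They were followed through the first hours of embryonic development of the oriental fruit fly, Bactrocera dorsalis. They were identified by their start positions on the mitochondrial scaffold NC_008748.1, and all 7 were found among the 13489 gene models of the series. The other 6 models on that scaffold were the remaining protein-coding genes COX1, COX2, COX3, CYTB, ATP6 and ATP8. Whole embryos were taken at 3 ages, given in hours after egg laying (hours post-oviposition, hpo), of 0-1 hpo, 2-4 hpo and 5-8 hpo, and were kept in RNAlater. Each age was represented by 1 library. Strain, sex and the number of embryos pooled are not given in the labels. Differences between ages therefore rest on single libraries and carry no p-value, and all intervals below are 95% exact intervals that cover counting error of the reads only.

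Complex I takes electrons from NADH, passes them to ubiquinone and pumps protons across the inner mitochondrial membrane. Its membrane arm is built around the subunits encoded by the mitochondrial genome, while its other subunits are encoded in the nucleus. ND2, ND4 and ND5 are the antiporter-like subunits of the pumping arm, ND1 lines the site where ubiquinone binds, and ND3, ND4L and ND6 are small membrane subunits next to it. In animal mitochondria both DNA strands are transcribed into long RNAs that are cut, largely at the tRNA genes, into shorter transcripts that mostly receive a poly-A tail. An early insect embryo begins with mitochondria and RNA supplied by the mother.

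The libraries held 68140879, 65069185 and 74817640 gene-assigned reads in age order. The opsin gene Rh1, a marker of the adult eye, had 0 reads in each library, which allows up to 0.0440, 0.0461 and 0.0401 RPM, the value that 3 reads would have. RPM is the read number relative to the library total, with no term for gene length. The yolk protein gene VIT1 stood at 1.58, 3.02 and 1.13 FPKM. FPKM scales fragments to gene length and library total, so that levels of genes of different length can be set side by side. Every value is relative to its library total, and in whole-embryo RNA fewer cells of a type and less RNA per cell cannot be told apart.

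On the scaffold, ND2 (positions 268 to 1290), ND3 (5667 to 6018) and ND6 (10016 to 10539) lie on the plus strand. ND5 (6449 to 8168), ND4 (8250 to 9590), ND4L (9584 to 9880) and ND1 (11757 to 12696) lie on the minus strand. The build is unnamed in the sources used here, but the positions of all 13 mitochondrial genes equal those in the RefSeq gene table. In each model the listed length equals the span, so none has an intron. The listed lengths were 297 bases for ND4L, 352 for ND3, 524 for ND6, 940 for ND1, 1023 for ND2, 1341 for ND4 and 1720 for ND5. For ND1, ND3, ND5 and ND6, 4 of the 7, the length is not a multiple of 3. Incomplete stop codons that the poly-A tail completes are known from insect mitochondrial genes.

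Among the ND genes only ND4 and ND4L overlap, by 7 bases at positions 9584 to 9590, which is 2.36% of ND4L and 0.522% of ND4. ND6 directly abuts CYTB with no base between them. ND5 and ND4 are 81 bases apart and COX3 and ND3 74 bases, with 1 tRNA gene between the genes of each pair in the RefSeq table. No ND gene overlaps a protein-coding gene on the opposite strand. The strand setting of the read counting is not given, so RNA from the opposite strand cannot be told apart from RNA of the gene itself.

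ND1 and ND3 were the most abundant ND transcripts in each library. ND1 had 39966, 60484 and 67881 reads in age order and stood at 624, 989 and 965 FPKM. It ranked 125, 93 and 111 among all gene models in age order. ND3 stood at 749, 657 and 499 FPKM, from 17963, 15049 and 13138 reads. ND3 was thus above ND1 only at 0-1 hpo, by 1.20-fold (1.18 to 1.22), and at 5-8 hpo ND1 was 1.93-fold above ND3 (1.90 to 1.97).

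The antiporter-like subunits formed the middle of the range, and their order depended on age. ND2 stood at 163, 294 and 362 FPKM in age order, from 11330, 19589 and 27691 reads. ND5 stood at 118, 236 and 263 FPKM, from 13834, 26416 and 33817 reads. ND4 stood at 115, 299 and 464 FPKM, from 10527, 26076 and 46559 reads. ND4 was the lowest of the group at 0-1 hpo and the highest at 5-8 hpo. ND5 and ND4 could not be separated at 0-1 hpo by the counting interval of their ratio (1.02, interval 0.999 to 1.05), nor could ND4 and ND2 at 2-4 hpo (1.02, 0.997 to 1.03). All other neighbours in the order of levels differed beyond counting error in each library.

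ND4L and ND6 were the least abundant ND transcripts at every age. ND4L stood at 75.5, 88.6 and 61.9 FPKM, from 1528, 1713 and 1376 reads. ND6 stood at 61.6, 78.0 and 55.8 FPKM, from 2201, 2658 and 2186 reads. Among the 13 mitochondrial genes only ATP8 was lower than these, at 13.9, 24.7 and 15.9 FPKM. ATP8 is also the shortest of the 13 genes and, like ND4L, the shorter partner of a pair that overlaps by 7 bases. The highest ND level was 12.1 times the lowest at 0-1 hpo, 12.7 times at 2-4 hpo and 17.3 times at 5-8 hpo.

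**Figure D1:**
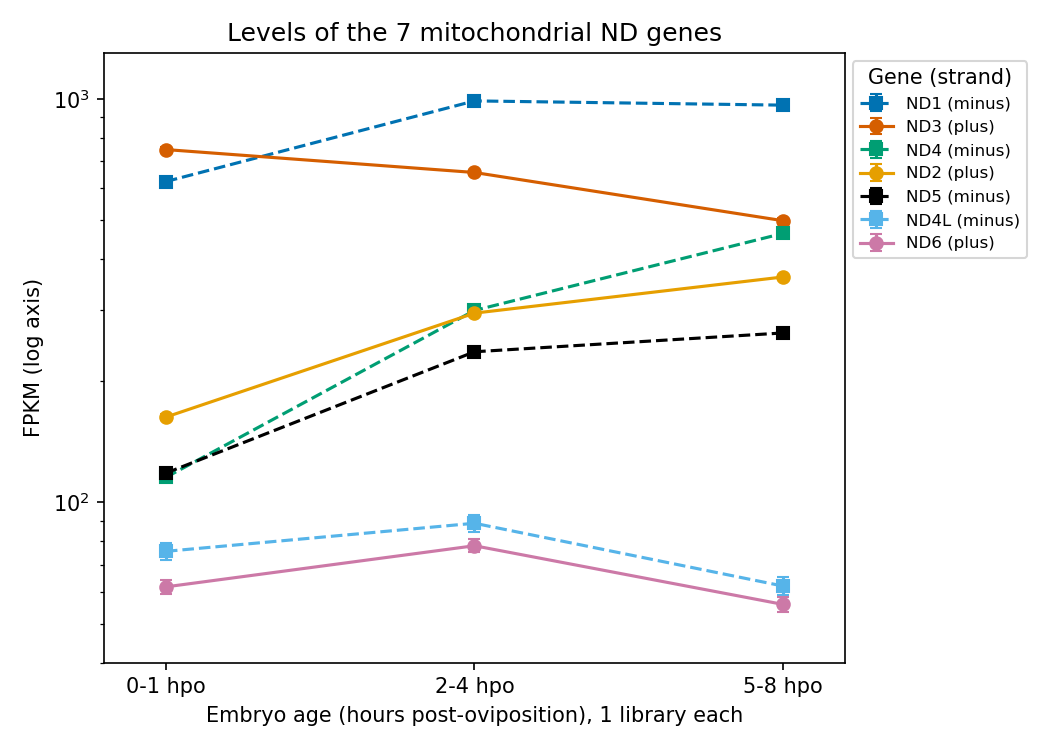
FPKM of each ND gene (vertical log axis) in the library of each age, with solid lines and circles for plus-strand and dashed lines and squares for minus-strand genes, and bars for the 95% counting interval. ND2, ND4 and ND5 are highest at 5-8 hpo, ND3 is highest at 0-1 hpo (at 2-4 hpo its level relative to 0-1 hpo changes sign under median-of-ratios scaling), and ND1, ND4L and ND6 are highest at 2-4 hpo.

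The first comparison asked how the ND transcripts of embryos at 2-4 hpo differed from those of newly laid eggs at 0-1 hpo. On the scale of FPKM, 6 of the 7 were higher at 2-4 hpo and ND3 was lower. Among the 7310 genes that reached FPKM 1 in at least 1 of the 2 libraries, 39.6% were higher and 60.4% lower by any amount. Under median-of-ratios scaling 7 of the 7 were higher, against 48.8% of all genes. Relative to the total of mitochondrial protein-coding reads, which was itself larger at 2-4 hpo, 2 of the 7 were higher, against 8.07% of all genes. Only ND4 was at least 2-fold higher on log2(FPKM + 1), against 5.55% of all genes, and none of the 7 was at least 2-fold lower, against 23.5%. Of the other 6 mitochondrial genes, 2 were at least 2-fold higher and none was lower by that fold. Under median-of-ratios scaling ND2 and ND5 also reached 2-fold, against 7.99% of all genes. Relative to the mitochondrial total no member did, against 2.54% of all genes, and ND3 was over 2-fold lower, against 53.6%. All 7 ND genes passed the filter on low values in every comparison. The median log2(FPKM + 1) ratio was 0.66 for the ND genes, 0.87 for the other 6 mitochondrial genes and -0.21 for all genes compared.

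On the FPKM scale the antiporter-like subunits showed the largest differences at 2-4 against 0-1 hpo. The FPKM of ND4 was 2.59-fold higher (2.54 to 2.65), and 3.02% of all genes compared had a larger log2(FPKM + 1) ratio. ND5 was 2.00-fold higher (1.96 to 2.04), a log2(FPKM + 1) ratio of 0.99 that stopped just short of 2-fold. ND2 was 1.81-fold higher (1.77 to 1.85), although relative to the mitochondrial total its log2 ratio was -0.06.

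On that scale the remaining members differed less between these ages. ND1 was 1.58-fold higher at 2-4 hpo (1.56 to 1.61), ND6 1.26-fold (1.19 to 1.34) and ND4L 1.17-fold (1.10 to 1.26). Relative to the mitochondrial total these ND1, ND6 and ND4L ratios turned negative, at -0.26, -0.57 and -0.68 on the log2 scale. There ND3 was at -1.11, against 0.45 for ND4 and 0.08 for ND5, so that the order by size was not that of the FPKM scale. ND3 was 1.14-fold lower (1.12 to 1.16), and this direction changed under median-of-ratios scaling of the libraries, which gave a log2 ratio of 0.01. That scaling moved the median of all genes by 0.19. Relative to the median of all genes, the log2(FPKM + 1) ratio of ND3 was 0.03 and that of ND4 was 1.58.

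The second comparison set embryos at 5-8 hpo against embryos at 2-4 hpo, and here the ND genes differed in both directions. ND2, ND4 and ND5 were higher at 5-8 hpo, while ND1, ND3, ND4L and ND6 were lower. These 3 higher and 4 lower genes compare with 52.9% higher and 47.1% lower by any amount among all genes compared. Of the other 6 mitochondrial genes, 4 were higher and 2 lower. None of the 7 reached 2-fold in either direction, whereas of the 8142 genes compared 30.3% were higher and 21.1% lower by at least that fold. None of the other 6 mitochondrial genes reached it either. The median log2(FPKM + 1) ratio was -0.03 for the ND genes, 0.24 for the other 6 mitochondrial genes and 0.11 for all genes. The 2-4 hpo library enters both this comparison and the first one.

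ND4 was 1.55-fold higher at 5-8 than at 2-4 hpo (1.53 to 1.58), ND2 1.23-fold (1.21 to 1.25) and ND5 1.11-fold (1.10 to 1.13). ND1 was 1.02-fold lower (1.013 to 1.036), the smallest difference among the 7. The small subunits lay close together, with ND4L 1.43-fold lower (1.33 to 1.54), ND6 1.40-fold (1.32 to 1.48) and ND3 1.32-fold (1.29 to 1.35). None of these directions changed under the scalings tried. The log2 ratio of ND5 came closest, at 0.001 when set relative to the mitochondrial total.

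Over the whole interval the ND genes spread apart further. At 5-8 against 0-1 hpo, ND2, ND4 and ND5 were at least 2-fold higher, 3 of 7 against 23.8% of the 8148 genes compared. The same fold was passed by 4 of the other 6 mitochondrial genes. No ND gene, and none of those 6, was at least 2-fold lower, against 27.2% of all genes. Relative to the mitochondrial total no member was at least 2-fold higher, against 13.9% of all genes, and ND3, ND4L and ND6 were at least 2-fold lower, against 55.6%. ND4 was 4.03-fold higher (3.94 to 4.11), ND5 2.23-fold (2.18 to 2.27), ND2 2.23-fold (2.18 to 2.28) and ND1 1.55-fold (1.53 to 1.57). Relative to the mitochondrial total the log2 ratio of ND4 was 0.93, while those of ND5 and ND2 were each 0.08 and that of ND1 was -0.44.

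ND3 was 1.501-fold lower at 5-8 than at 0-1 hpo (1.47 to 1.54) and ND4L 1.22-fold lower (1.13 to 1.31). ND6 was 1.11-fold lower (1.04 to 1.17), but 0.02 higher on the log2 scale under median-of-ratios scaling, which moved the median of all genes by 0.16. The median log2(FPKM + 1) ratio was 0.63 for the ND genes, 1.08 for the other 6 mitochondrial genes and -0.17 for all genes. In this comparison all of those 6 were higher, against 4 of the 7 ND genes and 44.7% of all genes. ATP8, at 1.15-fold (0.924 to 1.43), was not separated from no difference by counting error. The 3 lower ND genes compare with 55.3% of all genes.

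**Figure D2:**
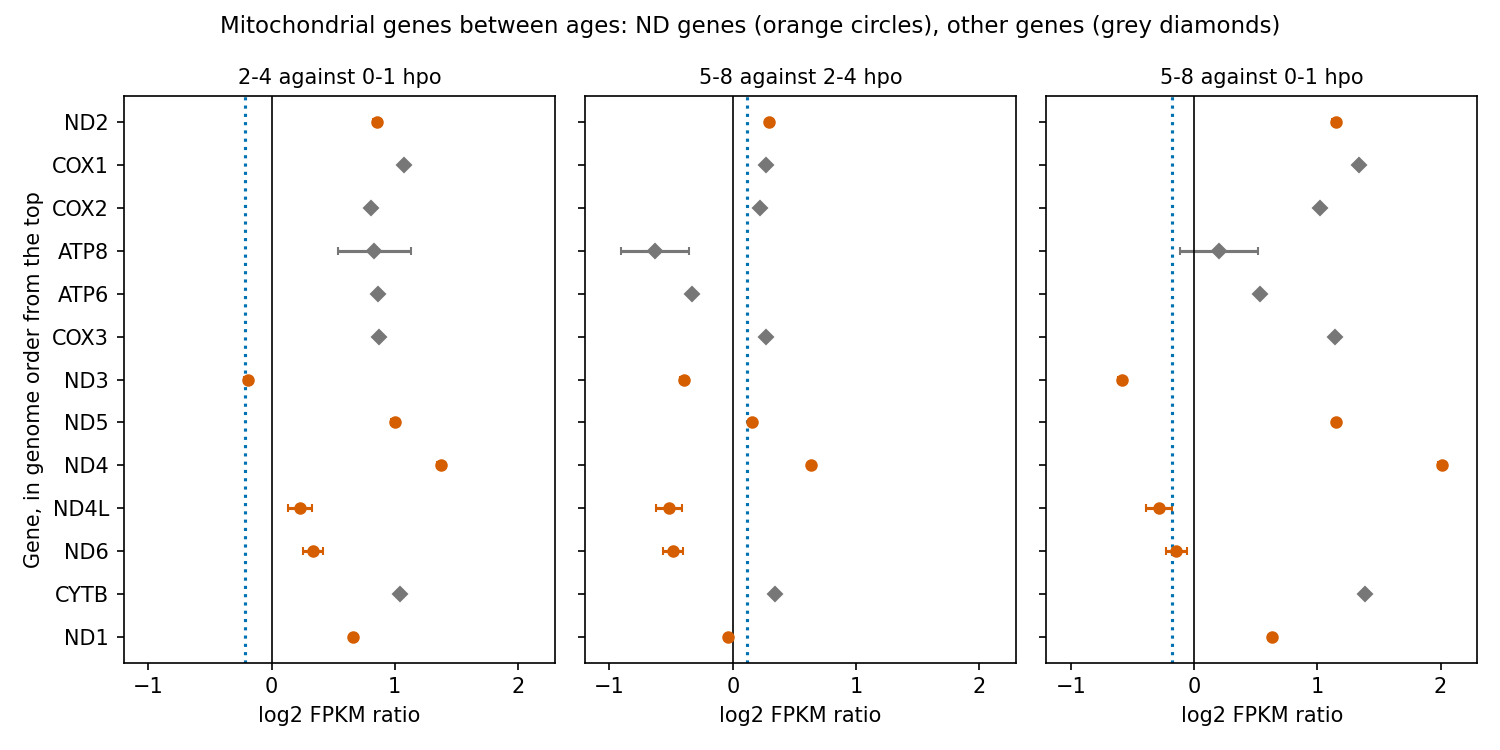
log2 ratio of FPKM (horizontal axis) for the 13 mitochondrial genes in genome order from the top, in 3 panels for the 3 pairs of ages, with bars for the 95% counting interval. ND genes are orange circles and other genes grey diamonds, the solid line marks 0 and the dotted line the median log2(FPKM + 1) ratio of all genes; under median-of-ratios scaling ND3 at 2-4 against 0-1 hpo and ND6 at 5-8 against 0-1 hpo move across 0.

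Taken over the 3 ages, 3 of the 7 ND genes (ND2, ND4 and ND5) were higher at each step, a course met by 20.1% of the 8230 genes that reached FPKM 1 at any age. Another 3 (ND1, ND4L and ND6) had their highest value at 2-4 hpo, against 22.8% of all genes. ND3 was lower at each step, against 24.6%, and was the only mitochondrial gene with that course, which under median-of-ratios scaling became a peak at 2-4 hpo. Relative to the total of mitochondrial reads, ND1, ND3, ND4L and ND6 were lower at each step, against 47.4% of all genes. On that scale ND4 and ND5 were higher at each step, against 9.61%, and ND2 was lowest at 2-4 hpo, against 38.0%. The second step of ND5 was within counting error there, with a log2 ratio of 0.001. Its share of mitochondrial reads was 2.071% (2.046 to 2.096) at 2-4 hpo and 2.073% (2.051 to 2.095) at 5-8 hpo. On the FPKM scale no ND gene had its lowest value at 2-4 hpo, against 31.2% of all genes. Of the other mitochondrial genes, COX1, COX2, COX3 and CYTB were higher at each step, and ATP6 and ATP8 had their highest value at 2-4 hpo.

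The make-up of the ND reads differed between ages. In age order, ND4 took 10.8% (10.6 to 11.01), 17.16% (16.97 to 17.35) and 24.2% (24.0 to 24.4) of the reads of the 7 ND genes. ND3 took 18.5% (18.2 to 18.7), 9.90% (9.75 to 10.1) and 6.82% (6.71 to 6.93). ND1 took the largest share throughout, at 41.1%, 39.8% and 35.2%. ND5 took 14.2%, 17.4% and 17.6%, and ND2 11.6%, 12.9% and 14.4%. ND4L never exceeded 1.57% of ND reads and ND6 never exceeded 2.26%, and both had their smallest share at 5-8 hpo.

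**Figure D3:**
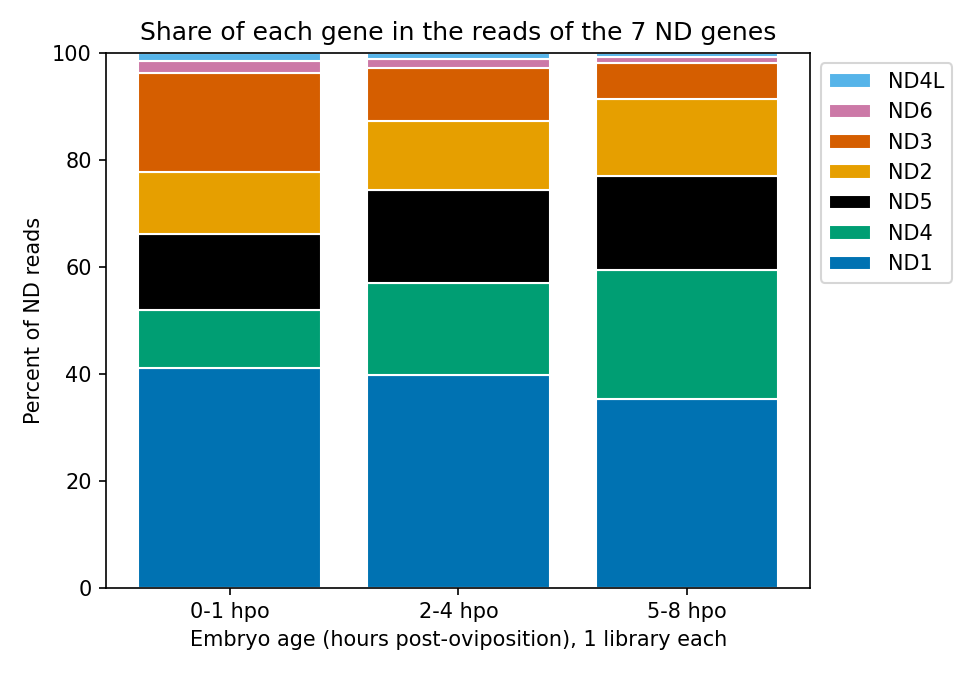
Percent of the reads of the 7 ND genes taken by each gene (vertical axis) in the library of each age; shares of reads also depend on gene length. In age order the share of ND4 is 10.8%, 17.16% and 24.2%, while that of ND3 is 18.5%, 9.90% and 6.82%.

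As a group, the ND genes took 0.143%, 0.234% and 0.257% of all gene reads in age order. Their summed RPM was 1.63-fold higher at 2-4 than at 0-1 hpo (1.62 to 1.65), against 1.93-fold for the other 6 mitochondrial genes. At 5-8 against 2-4 hpo the ND reads were 1.10-fold higher (1.09 to 1.11), and those of the other 6 genes 1.11-fold higher. The ND genes thus made up 13.8% of mitochondrial protein-coding reads at 0-1 hpo (13.7 to 13.9), 11.9% at 2-4 hpo (11.86 to 11.97) and 11.8% at 5-8 hpo (11.8 to 11.9). Without ND4 in either sum the shares were 12.5%, 10.1% and 9.22%.

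Strand did not separate the courses. The plus strand held ND2, higher at each step, ND3, lower at each step on the FPKM scale, and ND6, highest at 2-4 hpo. The minus strand held ND4 and ND5, higher at each step, and ND1 and ND4L, highest at 2-4 hpo. Summed RPM at 5-8 against 0-1 hpo was 2.07-fold higher for the minus-strand ND genes (2.05 to 2.09) and 1.24-fold higher for the plus-strand ND genes (1.23 to 1.26). These sums lean on single genes. ND3 held 17963 of the 31494 plus-strand ND reads at 0-1 hpo. At 5-8 hpo ND3 was 1.501-fold lower and ND6 1.11-fold lower, while ND2 was 2.23-fold higher. Without ND1 the minus-strand sum was 2.88-fold higher (2.84 to 2.92). The other 6 mitochondrial genes, all on the plus strand, were 2.15-fold higher in sum.

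The differences between ages followed gene length. The 3 ND genes of at most 600 bases (ND4L, ND3 and ND6) had log2(FPKM + 1) ratios of -0.19 to 0.33 at 2-4 against 0-1 hpo, and the 4 longer ones of 0.66 to 1.37. At 5-8 against 2-4 hpo the ranges were -0.51 to -0.40 for the 3 shorter genes and -0.03 to 0.63 for the 4 longer ones. At 5-8 against 0-1 hpo they were -0.59 to -0.14 and 0.63 to 2.00. The division at 600 bases was chosen after the values were seen, and the shorter genes are also the small membrane subunits.

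Across the 7 genes, Spearman's rho between length and log2(FPKM + 1) ratio was 0.93, 0.86 and 0.86 in the 3 comparisons, which share libraries. Length did not go with the FPKM level itself, with rho of 0.07, 0.14 and 0.14 at the 3 ages. Over all 13 mitochondrial genes the rho of length with the ratio was 0.81, 0.79 and 0.87. Over the 7297, 8129 and 8135 genes compared outside the mitochondrial genome it was -0.01, -0.02 and -0.03. There, genes of at most 600 bases had median log2(FPKM + 1) ratios of -0.16, 0.44 and 0.37 in the comparisons, against -0.22, 0.10 and -0.19 for longer genes. Per the labels' protocols, fragments of 250 to 300 base pairs were selected, a size close to the length of ND4L and ND3. The part of fragment size in the differences was not tested.

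**Figure D4:**
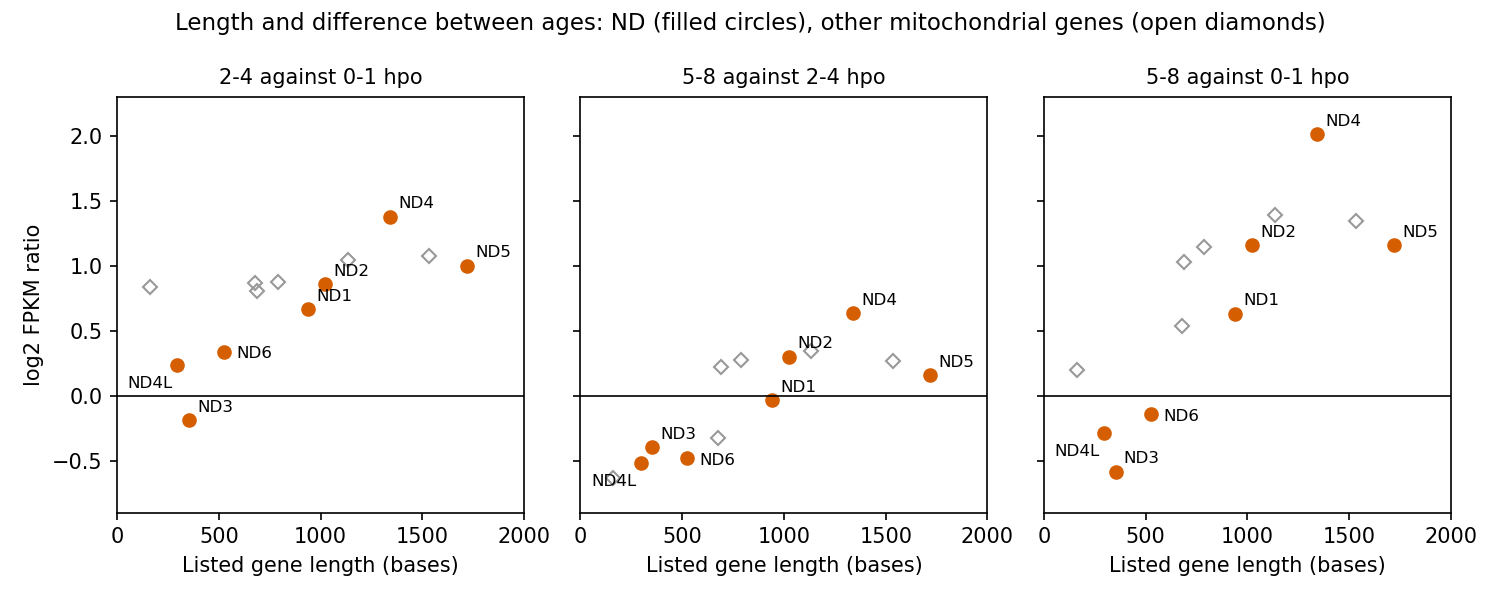
log2 ratio of FPKM between ages (vertical axis) against listed gene length in bases (horizontal axis) in 3 panels for the 3 pairs of ages, with filled circles for ND genes and open diamonds for the other 6 mitochondrial genes. ND4L, ND3 and ND6 lie below the 4 longer ND genes in each panel; under median-of-ratios scaling ND3 (left panel) and ND6 (right panel) move across 0.

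Neighbouring genes that are read from the same strand were compared within each library. This removes the library scaling but not the relation of the differences to gene length. The largest divergence was between the overlapping genes ND4 and ND4L, which in Drosophila melanogaster are known to share a transcript. The FPKM of ND4 was 1.53 times that of ND4L at 0-1 hpo (1.45 to 1.61), 3.37 times at 2-4 hpo (3.21 to 3.54) and 7.49 times at 5-8 hpo (7.10 to 7.91). The ratio was thus 4.91 times as large at 5-8 as at 0-1 hpo, and the intervals of the 3 ages did not overlap. Reads that touch both genes may be left uncounted or assigned to one, depending on counting settings that no source used here states.

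ND4 was also higher relative to ND5, its other neighbour on the minus strand, at the later ages. The FPKM ratio of ND4 to ND5 was 0.976 at 0-1 hpo (0.951 to 1.00), 1.27 at 2-4 hpo (1.24 to 1.29) and 1.77 at 5-8 hpo (1.74 to 1.79). The order of the 3 minus-strand neighbours by FPKM was ND5, ND4, ND4L at 0-1 hpo and ND4, ND5, ND4L at both later ages. ND5 and ND4 were not separated by counting error at 0-1 hpo.

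On the plus strand, ND3 and ND6 were lower relative to their neighbours at the later ages, and ND2 differed less. ND3 had 0.289 times the FPKM of COX3, a cytochrome oxidase subunit gene, at 0-1 hpo (0.284 to 0.293), 0.138 times at 2-4 hpo (0.136 to 0.141) and 0.0871 times at 5-8 hpo (0.0856 to 0.0887). ND6 had 0.109 times the FPKM of CYTB, which encodes cytochrome b of complex III, at 0-1 hpo (0.104 to 0.113), 0.0666 times at 2-4 hpo (0.0640 to 0.0692) and 0.0375 times at 5-8 hpo (0.0359 to 0.0391). ND2 had 0.0780 times the FPKM of COX1, the catalytic cytochrome oxidase subunit gene, at 0-1 hpo (0.0765 to 0.0795), 0.0672 times at 2-4 hpo (0.0663 to 0.0682) and 0.0686 times at 5-8 hpo (0.0677 to 0.0694). The ratio at 5-8 hpo was 0.302 times that at 0-1 hpo for ND3 to COX3, 0.345 times for ND6 to CYTB and 0.879 times for ND2 to COX1. ND4L (297 bases), ND3 (352) and ND6 (524) are each shorter than their partners ND4 (1341), COX3 (789) and CYTB (1135). Their ratios are thus not separate from the relation to length. ND2 to COX1 (1023 and 1535 bases) went the same way. ND4 to ND5 (1341 and 1720 bases) went the other way, at 1.81 times. ND4L and ND6 also lie upstream of their partners, and ND3 downstream. The parts of length and position in these ratios were not tested.

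**Figure D5:**
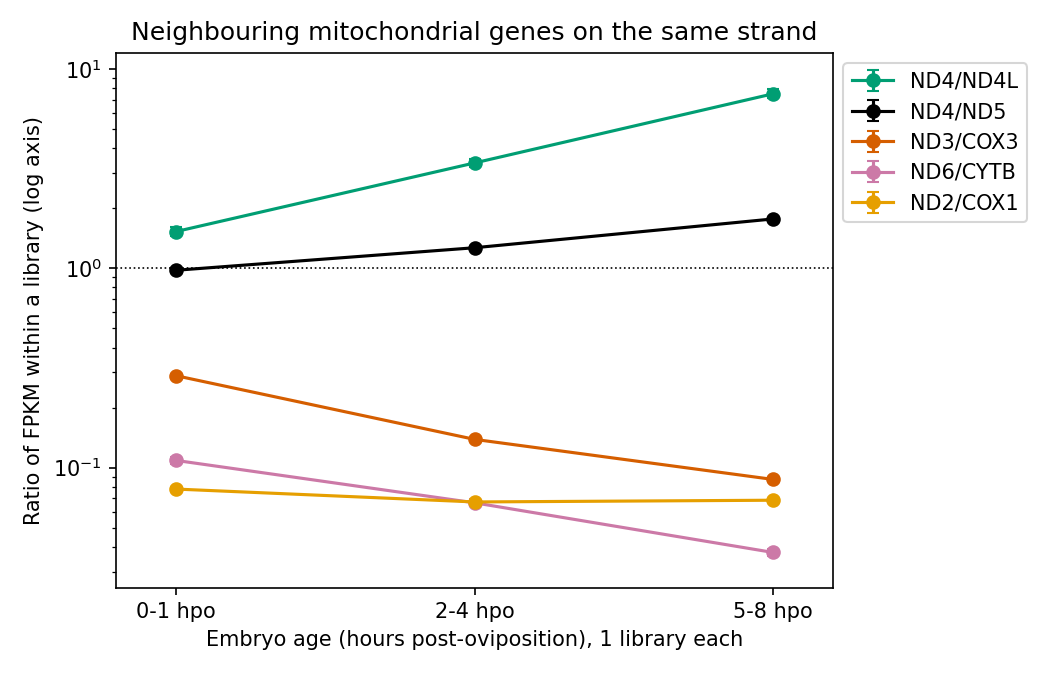
Ratio of FPKM between neighbouring mitochondrial genes on the same strand (vertical log axis) in the library of each age, with bars for the 95% counting interval and a dotted line at 1. The ratio of ND4 to ND4L is 1.53 at 0-1 hpo and 7.49 at 5-8 hpo, while ND3 to COX3 and ND6 to CYTB are lower at each later age.

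Each ND gene was also set against 58 other named genes that reached FPKM 10 at any age, by the Euclidean distance of mean-centred log2(FPKM + 1) over the 3 libraries. ND2 was closest to COX3, at a distance of 0.019, and ND5 also to COX3, at 0.097. ND4 was closest to CYTB but at a distance of 0.43, the largest nearest distance among the 7. ND1 was closest to ATP6, at 0.21, and ND4L to ND6, at 0.10. ND6 was closest to the nuclear gene tra-2 (97.1, 122 and 91.9 FPKM), at 0.057, and ND3 to the nuclear gene Dlgp2 (66.6, 68.2 and 52.4 FPKM), at 0.19. Among all 6535 other genes of that level, named or not, 17 lay within 0.25 of ND4 and 416 within 0.25 of ND4L, and for the other members the number was 92 to 391. With 3 libraries such a distance only describes the course over these embryos.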

How the data were processed

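RNA of whole embryos was sequenced after poly-T selection and random priming, per the labels' protocols, so both tail length and RNA amount bear on the values. HISAT2 2.0.4 and HTSeq 0.9.1 are named in the submitters' processing notes. Settings, strand handling and genome build were not given in the sources used here. Deposited were whole read counts per gene for each library and 1 table of FPKM values (named so by the authors), which for the 13 mitochondrial genes equalled those computed from the counts and listed lengths. Names came from RefSeq genes of assembly ASM2337382v1 (11887 of 13489 identifiers matched, 76 with an informative name). No nuclear complex I or mitochondrial RNA machinery gene could be matched by name, and mitochondrial rRNA and tRNA genes were not analysed here.

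Comparisons used log2(FPKM + 1) over genes that reached FPKM 1 in either library, and a rule of size of 2-fold. Printed folds are FPKM ratios with exact conditional binomial intervals, for levels of 2 genes scaled by length, and shares have exact Clopper-Pearson intervals. Named genes were the 13 mitochondrial genes and, for each ND gene, the nearest named gene. Members, lists and tests were chosen with earlier results of these data known. Procedures were tested on simulated counts that held counting error only. That test had no variation between libraries, so it does not bear on how replicate libraries would differ. Alternatives were a pseudocount of 0.1, a fold of 1.5, no filter, TPM, RPM, median-of-ratios scaling, scaling to mitochondrial reads, recomputed FPKM and leaving out ND3 and ND4L or ND4. Analysis used Python 3.11.15, numpy 2.4.6, pandas 2.3.3 and scipy 1.17.1.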

Additional observations from a re-analysis of the deposited data

How the results depend on the processing

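A pseudocount of 0.1, TPM and RPM left every count of ND genes past 2-fold as reported. For the ratio of a gene between ages, RPM differs from FPKM only through the pseudocount. Recomputed FPKM and no filter could not change these counts. The recomputed values equalled the FPKM values of the authors, and all 7 ND genes passed the filter. Of 126 values of single ND genes under alternatives, 7 changed sign, 2 under median-of-ratios scaling and 5 relative to mitochondrial reads, none of them on a value past 2-fold. Among these alternatives a pseudocount of 0.1, RPM and recomputed FPKM could not change a sign. At 2-4 against 0-1 hpo the number of ND genes at least 2-fold higher was 3 under median-of-ratios scaling, 0 relative to mitochondrial reads and 4 at a fold of 1.5, in place of 1. ND genes at least 2-fold lower there numbered 1 relative to mitochondrial reads, in place of 0, against 53.6% of all genes. At 5-8 against 2-4 hpo a fold of 1.5 gave 1 higher, in place of 0. At 5-8 against 0-1 hpo, relative to mitochondrial reads 0 were at least 2-fold higher in place of 3 (13.9% of all genes). By the same fold 3 were lower in place of 0 (55.6% of all genes). A fold of 1.5 gave 4 higher and 1 lower there, the latter being ND3, which at 1.501-fold only just passed. Shares of all genes past 1.5-fold were not computed, so the counts at that fold cannot be set against a background.

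For 2-4 against 0-1, 5-8 against 2-4 and 5-8 against 0-1 hpo, the median log2 ratio of the ND genes was 0.57, -0.077 and 0.49 on the TPM scale and 0.87, -0.070 and 0.80 under median-of-ratios scaling. It was -0.26, -0.19 and -0.44 relative to mitochondrial reads, by construction lower since that total itself was larger at later ages. Without ND3 and ND4L, the shortest members, it was 0.85, 0.15 and 1.15. The ND share of mitochondrial reads was 16.4%, 12.6% and 11.9% at the 3 ages as a share of summed FPKM, and 12.5%, 10.1% and 9.22% without ND4. No paired analysis was possible because there was 1 library per age. Read depth limits ND4L and ND6 most, with their 1376 to 2658 reads per library.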
